A study of Mus musculus with 12 samples.

Results

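The 10 genes described here (*Pyy*, *Gcg*, *Insl5*, *Sct*, *Nts*, *Cck*, *Chga*, *Chgb*, *Tph1*, and *Neurod1*) are a set of hormone, granule, and identity genes of the enteroendocrine cells of the gut. They were taken from the deposited tables by gene name, 10 of 54532 genes, and every one of them was found; the list itself was drawn up with earlier results of these data known. The study removed YAP and TAZ, encoded by *Yap1* and *Wwtr1*, from smooth muscle. Male mice with floxed *Yap1* and *Wwtr1* carried the tamoxifen-inducible *Myh11*-CreERT2 transgene (Y/T KO) or lacked Cre (Ctrl), and tamoxifen was given to both, at 1 mg daily on 5 days. The mice were 5 to 7 weeks old, and tissue was taken on day 7 after the first injection according to the labels. Ctrl colon came from mice 788, 786, and 787, Y/T KO colon from mice 759, 783, and 780, Ctrl bladder from mice 784, 785, and 788, and Y/T KO bladder from mice 782, 783, and 780, with 3 libraries in each group. The *Myh11* promoter drives Cre in smooth muscle, and enteroendocrine cells are epithelial, so the cells that express these genes in the gut are not the cells in which the transgene is active. The RNA came from whole pieces of tissue, not from sorted cells.

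Enteroendocrine cells are scattered hormone-producing cells of the intestinal epithelium, renewed from the same stem cells as its absorptive and mucus-producing cells. L cells of the colon make peptide YY (*Pyy*), proglucagon (*Gcg*, the precursor of the glucagon-like peptides), and insulin-like peptide 5 (*Insl5*), whereas enterochromaffin cells make serotonin, for which tryptophan hydroxylase 1 (*Tph1*) is the rate-limiting enzyme. Chromogranins A and B (*Chga*, *Chgb*) are packed with hormones into secretory granules and are also made by neurons. Secretin (*Sct*), neurotensin (*Nts*), and cholecystokinin (*Cck*) are mainly hormones of the small intestine, and the transcription factor *Neurod1* acts in the maturation of the lineage. Serotonin, PYY, and the glucagon-like peptides are known for their actions on intestinal motility.

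The libraries held 2.80 to 3.94 gigabases of aligned sequence. Values are TPM, each transcript's share of a library after division by transcript length, so that levels can be compared between genes. A log2 fold change is Y/T KO against Ctrl on the log2(TPM + 0.1) scale, after scaling of the libraries, and was tested for genes of at least 0.5 TPM in at least 3 libraries. Urothelial *Upk2* was 642 to 905 TPM in the bladder libraries and at most 0.172 TPM in the colon libraries. *Yap1* was 45.8 to 54.9 TPM in Ctrl and 41.3 to 47.0 TPM in Y/T KO colon, a log2 fold change of -0.17 (SE 0.14). In bladder it was 98.6 to 109.8 TPM in Ctrl and 69.4 to 72.1 TPM in Y/T KO (-0.54, SE 0.08, limma adjusted p = 0.0625). *Wwtr1* was 16.8 to 21.5 TPM in Ctrl colon and 17.9 to 22.7 TPM in Y/T KO colon, and 32.5 to 61.6 TPM and 48.3 to 60.8 TPM in the bladders. Neither targeted gene passed the test in either tissue, where other cells than smooth muscle also give reads, and the genotypes are those of the labels. The insulin genes *Ins1* and *Ins2* were listed at 0 in all 12 libraries and the 6 islet markers summed to at most 0.988 TPM in any library, which bears on *Gcg*, a gene that islets also express.

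In Ctrl colon the order of the levels was *Insl5*, *Pyy*, *Chgb*, *Chga*, *Gcg*, *Tph1*, *Sct*, *Neurod1*, *Cck*, and *Nts*. Every library held this order down to *Cck*, and the ranges of neighbours did not overlap except for *Cck* and *Nts*. In Y/T KO colon the ranges of *Insl5* and *Pyy*, of *Chgb* and *Chga*, of *Chga* and *Gcg*, of *Tph1* and *Sct*, of *Cck* and *Neurod1*, and of *Neurod1* and *Nts* overlapped. The summed level of the 10 genes was 741, 534, and 718 TPM in the Ctrl colons of mice 788, 786, and 787 and 985, 640, and 643 TPM in the Y/T KO colons of mice 759, 783, and 780, so that the groups overlapped. In GRCm38 the genes lie apart from each other: *Chga* (chr12:102554969-102565028), *Chgb* (chr2:132781278-132795079) are on the plus strand, and *Pyy* (chr11:102106676-102107832), *Gcg* (chr2:62474530-62483650), *Insl5* (chr4:103017872-103026842), *Sct* (chr7:141278330-141279133), *Nts* (chr10:102481756-102490486), *Cck* (chr9:121489824-121495694), and *Neurod1* (chr2:79452521-79456751) on the minus strand, as *Tph1* is.

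**Figure D1:**
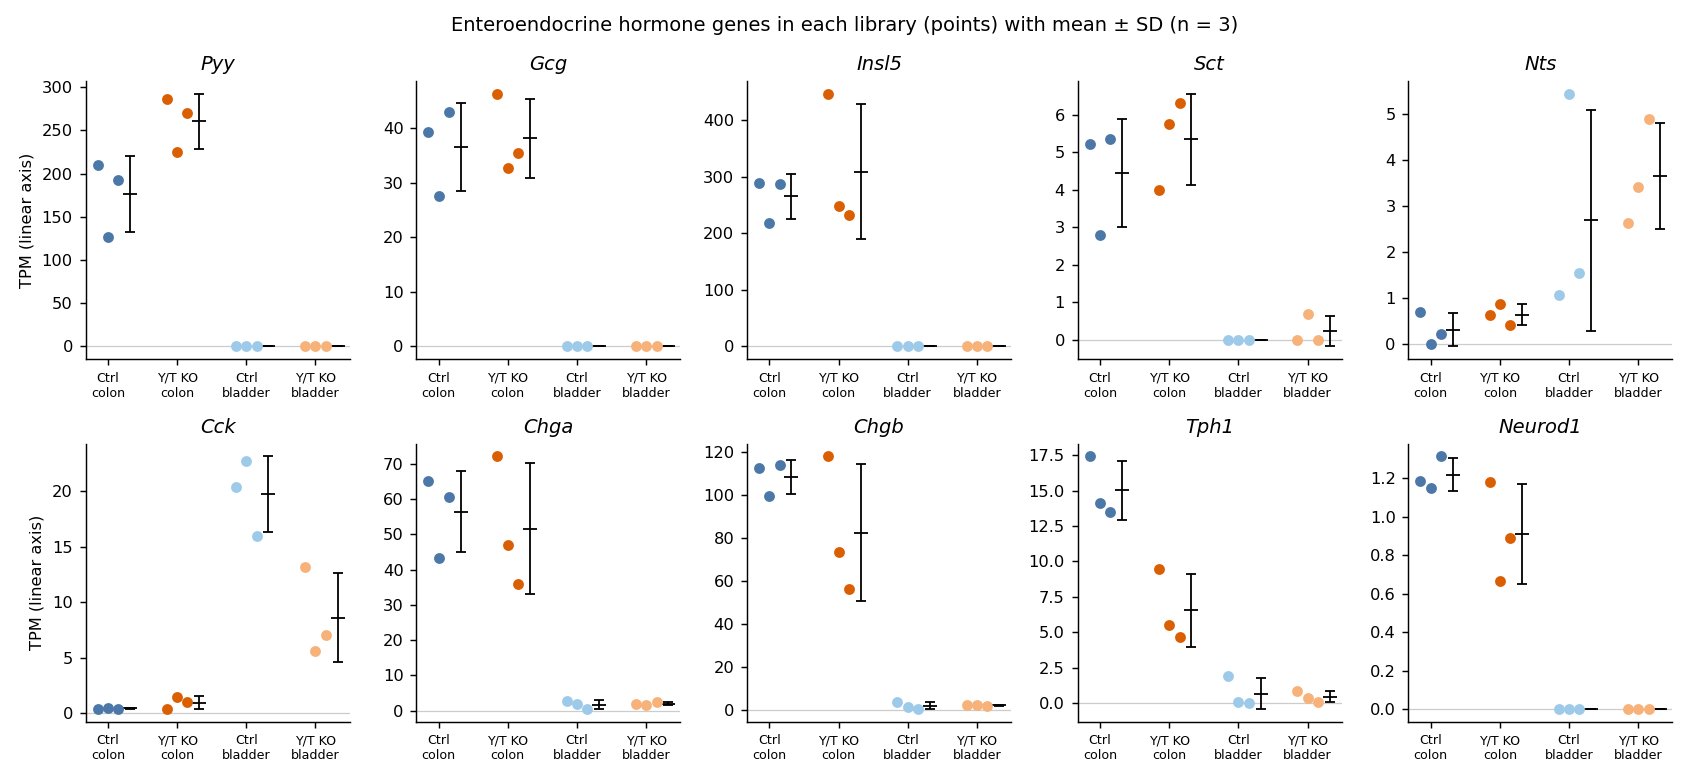
TPM of each of the 10 genes (vertical axes, linear, each with its own scale) in the 3 libraries of each group, with the mean ± SD of the deposited TPM beside the points. The L cell genes, the granins, *Tph1*, *Sct*, and *Neurod1* are higher in colon than in bladder, *Cck* is the reverse, and the colon genotypes separate only for *Pyy* and *Tph1*.

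The start regions of 4 of the genes are shown because they carry the differences described below (*Tph1*, *Pyy*, and *Cck*) or, for *Gcg*, because its levels hardly differed. The sequences are the 250 bases before the RefSeq start site (GRCm38.p6), written 5′ to 3′ on the gene's own strand, at chr7:46672538-46672787 for *Tph1*, chr11:102107833-102108082 for *Pyy*, chr9:121495695-121495944 for *Cck*, and chr2:62483654-62483903 for *Gcg*, all on the minus strand. Capitals mark matches to the searched motifs, which were the E-box CANNTG bound by NEUROD1 and many other factors, its form CATCTG, the cyclic AMP response element TGACGTCA, the TATA box TATAAA, and CATTCC, the core site of the TEAD factors that YAP and TAZ act through, each on both strands.
Tph1: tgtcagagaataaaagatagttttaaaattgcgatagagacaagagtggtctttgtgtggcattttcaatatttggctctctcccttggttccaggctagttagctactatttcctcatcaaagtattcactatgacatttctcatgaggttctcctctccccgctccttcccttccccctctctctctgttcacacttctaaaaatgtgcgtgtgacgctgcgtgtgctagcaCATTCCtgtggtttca
Pyy: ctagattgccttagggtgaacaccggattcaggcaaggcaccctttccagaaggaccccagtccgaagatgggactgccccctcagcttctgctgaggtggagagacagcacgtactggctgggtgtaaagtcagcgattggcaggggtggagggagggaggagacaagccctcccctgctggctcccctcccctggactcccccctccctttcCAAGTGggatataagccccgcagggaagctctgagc
Cck: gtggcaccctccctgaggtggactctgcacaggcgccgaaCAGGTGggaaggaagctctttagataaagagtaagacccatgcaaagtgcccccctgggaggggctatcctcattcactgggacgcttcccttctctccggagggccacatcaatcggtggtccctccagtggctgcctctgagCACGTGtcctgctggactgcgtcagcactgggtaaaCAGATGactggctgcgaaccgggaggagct
Gcg: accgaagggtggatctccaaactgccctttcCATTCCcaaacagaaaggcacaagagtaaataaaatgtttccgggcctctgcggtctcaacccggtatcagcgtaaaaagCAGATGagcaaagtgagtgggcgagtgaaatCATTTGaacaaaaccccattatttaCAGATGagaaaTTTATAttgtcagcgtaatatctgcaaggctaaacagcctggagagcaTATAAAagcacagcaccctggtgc

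In the whole windows, which reach from 250 bases before to 50 bases after the start, 9 of the 10 genes held an E-box, against 72.3% of all 32851 promoters of that length. Only *Tph1* held none. The form CATCTG, which is part of the E-box search, was found as its reverse complement CAGATG in *Gcg*, *Insl5*, *Sct*, and *Cck* (17.2% of all promoters). The TATA box was found in *Chga*, *Gcg*, *Insl5*, and *Sct* (13.6%), and the cyclic AMP response element in *Chgb* alone (1.79%). CATTCC was found at position -16 from the start site of *Tph1* and at position -219 in *Gcg* (14.7%). Apart from the free middle letters of the E-box, only the exact letters were searched. Variant forms of these elements were therefore not counted, and a gene without a match can hold one. These matches are descriptions of letters, and no binding was measured.

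Among the colon peptides of L cells, *Pyy* was the 1 whose genotypes separated. *Pyy* was 209.6, 127, and 192 TPM in the Ctrl colons of mice 788, 786, and 787 and 287, 225, and 270.1 TPM in the Y/T KO colons of mice 759, 783, and 780. Every Y/T KO library lay above every Ctrl library, with the Ctrl colon of mouse 786 the lowest. The log2 fold change was 0.62 (SE 0.25, 95% interval 0.06 to 1.19), a fold of 1.54, which did not pass the test (limma, adjusted p = 0.492). Without the Ctrl colon of mouse 786 it was 0.34. In bulk tissue, more or fewer cells of a type and more or less RNA per cell cannot be told apart.

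*Gcg* and *Insl5*, made by the same cells, did not separate by genotype. *Gcg* was 39.2, 27.5, and 42.9 TPM in the Ctrl colons and 46.4, 32.8, and 35.4 TPM in the Y/T KO colons, in the same order of mice. *Insl5*, the highest of the 10 genes, was 289, 219, and 288 TPM in the Ctrl colons and 447, 248, and 232 TPM in the Y/T KO colons. For both the highest value was the Y/T KO colon of mouse 759, and the other Y/T KO libraries lay within the Ctrl range. The log2 fold changes were 0.11 for *Gcg* (95% interval -0.46 to 0.67) and 0.20 for *Insl5* (95% interval -0.45 to 0.85), and the sign of each turned when a library was left out.

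Within a library, the ratio of *Pyy* to *Gcg* was 5.34, 4.61, and 4.48 in the Ctrl colons and 6.18, 6.86, and 7.63 in the Y/T KO colons, so that the groups did not overlap. The ratio of *Pyy* to *Insl5* was 0.724, 0.581, and 0.669 in the Ctrl colons and 0.642, 0.907, and 1.16 in the Y/T KO colons, and here they did. These ratios were chosen after the values were seen and carry no test.

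Of the granins, *Chga* was 65.1, 43.4, and 60.6 TPM in the Ctrl colons and 72.1, 46.9, and 35.8 TPM in the Y/T KO colons. *Chgb* was 112, 99.4, and 114 TPM in the Ctrl colons and 118, 73.3, and 56.1 TPM in the Y/T KO colons. The Y/T KO colon of mouse 759 was the highest library for both genes and that of mouse 780 the lowest, so the spread among Y/T KO mice covered the Ctrl range. The log2 fold changes were -0.13 for *Chga* (95% interval -0.81 to 0.55) and -0.43 for *Chgb* (95% interval -1.04 to 0.18), with limma adjusted p of 0.904 and 0.629.

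*Tph1*, the enzyme of enterochromaffin cells, was the member whose genotypes separated on the lower side in colon. It was 17.4, 14.1, and 13.5 TPM in the Ctrl colons and 9.45, 5.52, and 4.69 TPM in the Y/T KO colons. All 3 Y/T KO colons lay below the Ctrl range, and the one of mouse 759, the highest of the Y/T KO colons for both granins, was also the highest of them for *Tph1*. The log2 fold change was -1.20 (SE 0.28, 95% interval -1.85 to -0.55), a level 0.434 times that of Ctrl. It did not pass the test over all genes (limma, p = 0.00277, adjusted p = 0.264), and an exact permutation test of 3 against 3 libraries cannot go below 0.10. With each library left out the log2 fold change ran from -1.49 to -1.01.

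Ratios to the granins, chosen after the values were seen and not tested, were also compared within libraries. The ratio of *Tph1* to *Chga* was 0.267, 0.326, and 0.222 in the Ctrl colons and 0.131, 0.118, and 0.131 in the Y/T KO colons. The ratio of *Tph1* to *Chgb* was 0.155, 0.142, and 0.119 in the Ctrl colons and 0.0802, 0.0753, and 0.0837 in the Y/T KO colons. In both ratios the 3 Y/T KO libraries lay close together and below all Ctrl libraries, although the levels of the granins themselves spread widely. The ratio of *Chgb* to *Chga* was 1.73, 2.29, and 1.88 in the Ctrl colons and 1.64, 1.56, and 1.57 in the Y/T KO colons, also without overlap. Of the L cell peptides, *Insl5* and *Pyy* stood the other way. By the levels given above, the ratio of *Gcg* to *Chga* overlapped between the genotypes, so the L cell peptides did not separate as a set. The ratio of *Insl5* to *Chga* was 4.45, 5.04, and 4.74 in the Ctrl colons and 6.20, 5.29, and 6.48 in the Y/T KO colons. That of *Pyy* to *Chga* was 3.22, 2.93, and 3.17 in the Ctrl colons and 3.98, 4.79, and 7.55 in the Y/T KO colons. For both, every Y/T KO colon lay above the Ctrl range, although the level of *Insl5* itself overlapped. Mast cells also make serotonin through *Tph1*. Of the 8 genes of a mast cell list, 6 were tested in colon. Of these, 0 passed the test (0.137% of all tested genes) and 0 had an unadjusted p under 0.05 (9.73%). The summed level of the list was 45.0 to 65.7 TPM in Ctrl and 41.8 to 80.0 TPM in Y/T KO. The part of mast cells in the *Tph1* values was not tested.

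**Figure D2:**
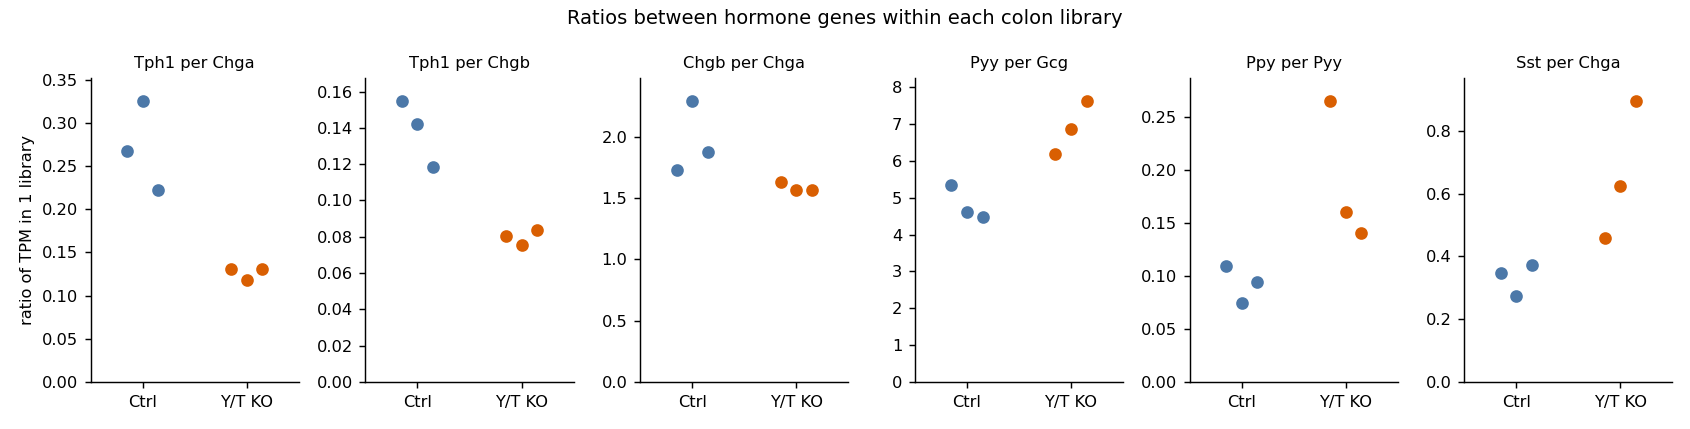
Ratio of the TPM of 2 genes within each colon library (vertical axes, linear from 0) for the 3 Ctrl and 3 Y/T KO libraries. The ratio of *Tph1* to either granin is lower in every Y/T KO library, and the ratios of *Pyy* to *Gcg*, *Ppy* to *Pyy*, and *Sst* to *Chga* are higher in every Y/T KO library.

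*Tph1* lies on chromosome 7 from 46644641 to 46672537, on the minus strand, in GRCm38. No gene in the files overlaps it. The acute-phase gene *Saa1*, chosen after its values were seen, lies on the same chromosome from 46740497 to 46742980 and was 0.0282, 0.0323, and 0.0381 TPM in the Ctrl colons and 2085, 4208, and 5284 TPM in the Y/T KO colons (limma, adjusted p = 2.56e-06). The near-identical copy *Saa2* is beside it, and reads can be divided between the copies. Of 11 neighbouring genes tested in colon, 8 had log2 fold changes above 0 and 3 below 0, and *Saa1* was the 1 that passed the test. The highest log2 fold changes of the 11 were those of *Saa1* (14.7), *Saa2* (4.32), and *Gm45309* (1.05). The limma adjusted p was 0.113 for *Saa2* and 0.531 for *Gm45309*. The other neighbours ran from *Saa3* (-1.42) through *Gm45629* (-0.42) and *Gm9392* (-0.28) to *Saal1* (0.50), *Sergef* (0.60), and *Hps5* (0.81). For these 6 the limma adjusted p ran from 0.369 to 0.803. All the neighbours named here were chosen after their values were seen.

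The hormones of the small intestine were low in colon. *Sct* was 5.21, 2.79, and 5.34 TPM in the Ctrl colons and 3.98, 5.74, and 6.31 TPM in the Y/T KO colons. *Cck* was 0.423, 0.516, and 0.415 TPM in the Ctrl colons and 0.383, 1.51, and 1.005 TPM in the Y/T KO colons. *Nts* was 0.704, 0, and 0.221 TPM in the Ctrl colons and 0.630, 0.874, and 0.417 TPM in the Y/T KO colons. The groups overlapped for each of the 3 genes. Their log2 fold changes were 0.33 for *Sct*, 0.82 for *Cck*, and 1.27 for *Nts* (SE 0.77), on a log2(TPM + 0.1) scale that is sensitive to the pseudocount at these levels. *Nts* was 0.47 without the Ctrl colon of mouse 786, and *Cck* 1.31 without the Y/T KO colon of mouse 759. The transcription factor *Neurod1* was 1.19, 1.15, and 1.31 TPM in the Ctrl colons and 1.18, 0.663, and 0.888 TPM in the Y/T KO colons (log2 fold change -0.38, 95% interval -1.15 to 0.39). Its span overlaps that of *Cerkl* on the same strand, which reached 0.590 TPM in colon.

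Over the colon as a whole, 0 of the 10 genes passed the test (limma, adjusted p under 0.05), as against 0.137% of the 17500 genes tested. At an unadjusted p under 0.05 there were 2 of 10, *Pyy* and *Tph1*, as against 9.73% of all tested genes (4.59% on the lower and 5.14% on the higher side). Groups that did not overlap were found for 1 of 10 on the lower side (8.28% of all genes) and 1 of 10 on the higher side (7.52%). The median log2 fold change of the 10 genes was 0.15, and that of all tested genes was 0.0063. The members' median was -0.15 without the Ctrl colon of mouse 786 (9 tested) and -0.0936 without the Y/T KO colon of mouse 759 (9 tested). The Y/T KO colon of mouse 759 held the highest level of 5 of the 10 genes (*Chga*, *Chgb*, *Pyy*, *Gcg*, and *Insl5*), and the Ctrl colon of mouse 786 the lowest level of 5. The summed level of 12 epithelial markers was 17974, 13670, and 16927 TPM in the Ctrl colons of mice 788, 786, and 787 and 15973 to 17830 TPM in the Y/T KO colons, so the library of mouse 786 was the lowest in these too.

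**Figure D3:**
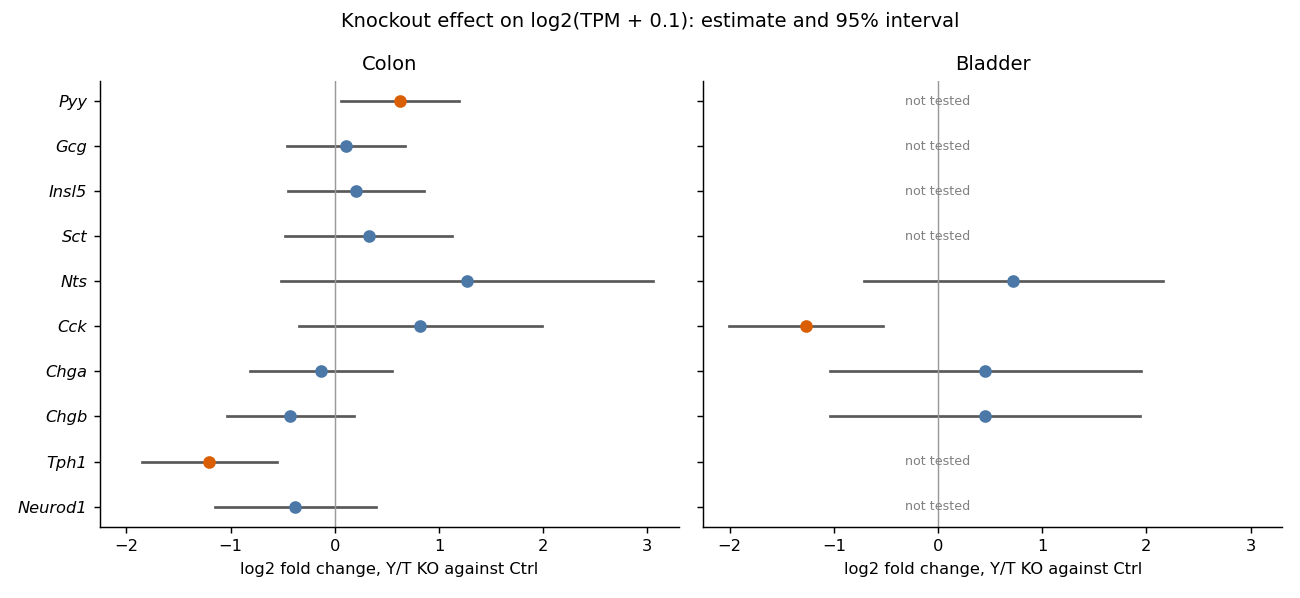
Log2 fold change of each gene in Y/T KO against Ctrl (horizontal axes) with its 95% interval, in colon (left) and bladder (right). Orange points mark genes whose genotypes did not overlap (*Pyy*, *Tph1*, and *Cck*), blue points mark the others, and 6 genes did not pass the filter on low values in bladder.

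In the bladder 4 of the 10 genes passed the filter on low values. *Pyy*, *Gcg*, *Insl5*, and *Neurod1* were listed at 0 in all 6 bladder libraries. *Sct* was listed at 0 in 5 of them and was 0.6998 TPM in the Y/T KO bladder of mouse 783. *Tph1* was 1.95, 0.124, and 0 TPM in the Ctrl bladders of mice 784, 785, and 788 and 0.902, 0.361, and 0.129 TPM in the Y/T KO bladders of mice 782, 783, and 780, with overlapping groups and no test.

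*Cck* was the member with the highest level in bladder, and the only tested member of the 4 whose genotypes separated there. It was 20.4, 22.7, and 16.0 TPM in the Ctrl bladders of mice 784, 785, and 788 and 13.2, 5.62, and 7.07 TPM in the Y/T KO bladders of mice 782, 783, and 780. Every Y/T KO bladder lay below every Ctrl bladder. The log2 fold change was -1.26 (SE 0.31, 95% interval from -2.002 to -0.52), a level 0.417 times that of Ctrl. It did not pass the test (limma, unadjusted p = 0.00522, adjusted p = 0.164). The summed level of 8 smooth muscle markers was 34907 to 45463 TPM in the Ctrl bladders and 16563 to 30437 TPM in the Y/T KO bladders. Of their log2 fold changes 8 of 8 were below 0, and 6 of 8 had groups that did not overlap on the lower side (10% of all genes). The part of the smooth muscle share in the *Cck* values was not tested.

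*Nts*, *Chga*, and *Chgb* overlapped between genotypes in bladder. *Nts* was 1.06, 5.44, and 1.55 TPM in the Ctrl bladders and 2.64, 3.41, and 4.90 TPM in the Y/T KO bladders. *Chga* was 2.83, 1.98, and 0.475 TPM in the Ctrl bladders and 1.87, 1.73, and 2.43 TPM in the Y/T KO bladders. *Chgb* was 3.69, 1.48, and 0.570 TPM in the Ctrl bladders and 2.32, 2.09, and 1.84 TPM in the Y/T KO bladders. For both granins the Ctrl bladder of mouse 788 was the lowest of the 6 libraries and that of mouse 784 the highest. The log2 fold changes were 0.46 for *Chga* and 0.45 for *Chgb* (SE 0.62 for each), and without the Ctrl bladder of mouse 788 they were -0.26 and -0.19.

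Each of 10 neuronal markers was also lowest of the 6 libraries in the Ctrl bladder of mouse 788, by very unequal amounts. *Uchl1*, the neuronal marker of highest level, was 389, 376, and 333 TPM in the Ctrl bladders and 546, 504, and 428 TPM in the Y/T KO bladders (log2 fold change 0.42, adjusted p = 0.218 by limma, groups not overlapping). *Stmn2* was 56.0, 29.0, and 21.7 TPM in the Ctrl bladders and 37.2, 40.7, and 35.8 TPM in the Y/T KO bladders. The drop in mouse 788 was slight for *Uchl1* and steeper for 2 genes chosen after their values were seen. *Snap25*, a vesicle fusion protein of nerve endings, was 31.5, 16.2, and 2.25 TPM in the Ctrl bladders and 13.2, 17.4, and 14.9 TPM in the Y/T KO bladders. The granin *Scg2* was 17.3, 6.08, and 0.850 TPM in the Ctrl bladders and 7.20, 10.6, and 7.17 TPM in the Y/T KO bladders. The summed level of 10 neuronal markers was 615, 485, and 370.0 TPM in the Ctrl bladders and 531 to 659 TPM in the Y/T KO bladders, most of it *Uchl1*. Of the 9 neuronal markers tested in bladder, 8 had log2 fold changes above 0, and without the Ctrl bladder of mouse 788 there was 1 above 0. The part of nerves in the bladder values of *Chga* and *Chgb* was not tested.

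**Figure D4:**
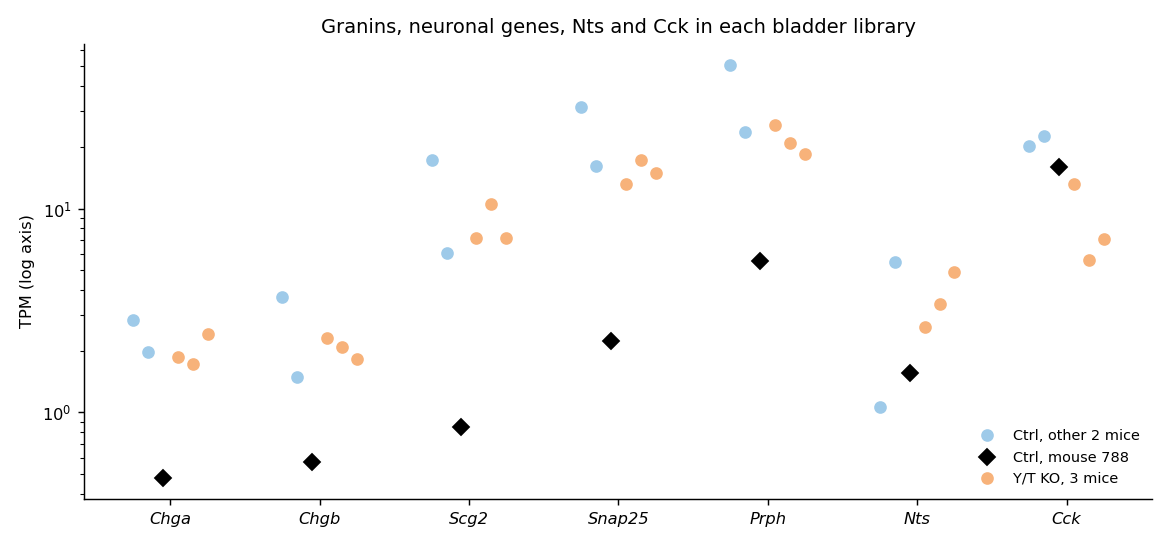
TPM (vertical axis, log scale) of the chromogranins, the granin *Scg2*, the neuronal genes *Snap25* and *Prph*, and *Nts* and *Cck* in the 6 bladder libraries (*Scg2* and *Snap25* chosen after their values were seen). The Ctrl bladder of mouse 788 (black diamonds) is the lowest library for the first 5 genes, whereas for *Cck* it lies with the other Ctrl bladders, above all Y/T KO bladders.

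In the bladder 0 of the 4 tested members passed the test (limma, adjusted p under 0.05), as against 0.302% of 18237 genes. At an unadjusted p under 0.05 there was 1 of 4, *Cck*, as against 14.8% of all genes. Groups that did not overlap on the lower side were found for that gene alone of the 4 (10% of all genes), and none did so on the higher side (10.4%).

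Between tissues, all 10 genes differed in both genotypes (limma, adjusted p under 0.05), as against 50.4% of the 19773 genes tested in Ctrl and 51.3% in Y/T KO mice. In each genotype 8 were higher in colon (25.1% of all genes in Ctrl and 25.8% in Y/T KO mice) and 2 were lower (25.3% and 25.6%). Genes at 0 in 1 tissue passed the filter through the other tissue alone and had to differ, so the counts describe the members and support nothing further. In Ctrl mice the log2 fold change, colon against bladder, was 5.44 for *Chga* (SE 0.51) and 6.34 for *Chgb* (SE 0.51). With single libraries left out these ran from 4.72 to 5.93 and from 5.70 to 6.98, the lowest without the Ctrl bladder of mouse 788 and the highest without that of mouse 784. In Y/T KO mice the log2 fold changes were 4.84 and 5.44. *Tph1* was higher in colon by a log2 of 5.56 in Ctrl (SE 0.90), from 4.66 to 6.79 without the same bladders, and by 3.98 in Y/T KO mice (3.47 without the Y/T KO bladder of mouse 780 and 4.49 without that of mouse 782). *Pyy*, *Gcg*, *Insl5*, and *Neurod1* are given no fold, because they were listed at 0 in bladder. Scaled to the epithelial markers, the sign turned for *Neurod1* in both genotypes and for *Chga*, *Tph1*, and *Sct* in Y/T KO mice, and these 3 were not called in Ctrl mice either.

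*Cck* and *Nts* were the members with the higher level in bladder. The log2 fold change of *Cck*, colon against bladder, was -4.92 in Ctrl (SE 0.41) and -2.84 in Y/T KO mice. For *Nts* it was -2.67 in Ctrl (SE 0.74, limma adjusted p = 0.0108) and -2.09 in Y/T KO mice (adjusted p = 0.0348). The call of *Nts* in Y/T KO mice was lost without the filter on low values (adjusted p = 0.0510) and without the Y/T KO colons of mouse 759 or 780 or the Y/T KO bladders of mouse 783 or 780.

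The difference of the knockout effect between the tissues passed the test for 0 of the 10 genes (limma interaction term, adjusted p under 0.05), as against 0.0607% of 19773 genes. At an unadjusted p under 0.05 there was 1 of 10, *Cck*, as against 11.9% of all genes. For *Cck* the effect in colon minus that in bladder was 2.07 on the log2 scale (SE 0.59, 95% interval 0.79 to 3.36, adjusted p = 0.244), since its estimate was above 0 in colon and below 0 in bladder. For *Tph1* it was -1.58 (95% interval -4.38 to 1.22), an interval widened by the low bladder values. For the members listed at 0 in bladder this term is the colon effect, with the spread of all 12 libraries.

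Beside the members, genes of transcription factors, granules, other hormones, nutrient sensors, and hormone receptors, transport, and degradation were taken from 5 lists. None of their genes passed the test in colon (limma, adjusted p under 0.05), and genes named here that are neither among the 3 of highest colon level in their list nor members were chosen after their values were seen. Of 17 transcription factors of the lineage, 13 were tested, 10 had log2 fold changes below 0, and the median was -0.11. Without the Ctrl colon of mouse 787 there were 6 of 12 below 0. The 3 of highest level were *Atoh1* (log2 fold change -0.06), which commits cells to the secretory fate, and *Foxa2* (0.03) and *Foxa1* (-0.08). *Isl1*, a factor of several hormone lineages that neurons also express, was 5.09, 7.76, and 5.05 TPM in the Ctrl colons and 3.41, 3.65, and 3.01 TPM in the Y/T KO colons (log2 fold change -0.75, adjusted p = 0.386), and was the only gene of the list with an unadjusted p under 0.05. *Neurog3*, which starts the endocrine fate, was 0.926 to 1.68 TPM in Ctrl and 0.979 to 1.87 TPM in Y/T KO colon.

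Of 22 genes of granules, hormone processing, and amine handling, all 22 were tested, with 11 log2 fold changes below 0 and 11 above 0 and a median of 0.0038. The highest were *Pam*, which amidates peptides such as PYY (-0.23), *Ddc*, the second enzyme of serotonin synthesis (-0.26), and the processing enzyme *Cpe* (-0.04). *Ddc* was 104, 159, and 111 TPM in the Ctrl colons and 99.9, 146, and 68.1 TPM in the Y/T KO colons, so that the groups overlapped for this enzyme where they separated for *Tph1*. At an unadjusted p under 0.05 there were *Cacna1a* (log2 fold change -0.78, adjusted p = 0.492) and *Scg2* (0.50, adjusted p = 0.488). In bladder 19 of the 22 were tested and 15 lay above 0 (50.2% of all genes tested there), with a median of 0.43. The Ctrl bladder of mouse 788 was the lowest of the 6 libraries for 17 of the 22, as for the neuronal markers, and without it 4 of the 19 lay above 0, with a median of -0.35. In bladder *Cpe* was 0.64 (SE 0.15, limma adjusted p = 0.159) and *Pam* 0.24. For both, the groups did not overlap on the higher side (2 of 19, as against 10.4% of all genes). *Gch1*, an enzyme of the cofactor of tryptophan hydroxylase, was -0.36 (limma adjusted p = 0.394). Its groups did not overlap on the lower side (1 of 19, as against 10% of all genes).

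Of 19 other gut hormone genes, 13 were tested in colon and 12 had log2 fold changes above 0 (50.9% of all tested genes), with a median of 0.57. Without the Ctrl colon of mouse 786 there were 9 of 13 above 0. There were 6 with an unadjusted p under 0.05 (5.14% of all genes on the higher side) and 6 whose Y/T KO libraries all lay above the Ctrl libraries (7.52%). *Ppy*, pancreatic polypeptide, of the same peptide family as *Pyy*, was 22.9, 9.42, and 18.2 TPM in the Ctrl colons and 75.9, 36.0, and 37.9 TPM in the Y/T KO colons (log2 fold change 1.60, SE 0.43, adjusted p = 0.372). *Sst*, the somatostatin of D cells, was 22.6, 11.9, and 22.5 TPM in the Ctrl colons and 33.1, 29.2, and 32.1 TPM in the Y/T KO colons (0.82, adjusted p = 0.464). Both were lowest in the Ctrl colon of mouse 786, and without it their log2 fold changes were 1.17 and 0.45. *Ghrl*, ghrelin, was 0.304 to 0.530 TPM in Ctrl and 0.991 to 2.16 TPM in Y/T KO colon (1.66, adjusted p = 0.332). It is in both counts of 6 but passed the filter on low values through its Y/T KO libraries, so its place there supports nothing further.

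Other members of that list are also made outside enteroendocrine cells. *Penk*, the enkephalin precursor, was 32.8, 27.3, and 27.2 TPM in the Ctrl colons and 52.3, 48.0, and 57.0 TPM in the Y/T KO colons (log2 fold change 0.88, SE 0.16, adjusted p = 0.140). *Guca2b*, uroguanylin, was 29.5, 16.2, and 31.9 TPM in the Ctrl colons and 41.0, 49.0, and 53.9 TPM in the Y/T KO colons (0.97, adjusted p = 0.424). The 3 of highest level were *Guca2a* (-0.09), *Vip* (0.24), and *Tac1* (0.72, adjusted p = 0.465). Neurons also make *Penk*, *Vip*, and *Tac1*. Of 10 neuronal markers tested in colon 8 were below 0, with a median of -0.50, and their summed level was 91.2 to 113.9 TPM in Ctrl and 65.6 to 99.0 TPM in Y/T KO colon. The part of neurons in the values of these hormone genes was not tested.

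Of 22 receptor, transporter, and degradation genes, 14 were tested in colon and 13 lay below 0 (49.1% of all tested genes), with a median of -0.29. The highest were *Maoa*, which degrades serotonin (-0.35), *Sort1*, a neurotensin receptor (-0.29), and *Dpp4*, which cleaves glucagon-like peptide 1 (-0.18). The serotonin transporter *Slc6a4* was 25.9, 34.4, and 21.6 TPM in the Ctrl colons and 25.7, 21.7, and 17.4 TPM in the Y/T KO colons (-0.29), with overlapping groups. *Npy1r*, a receptor of peptide YY, was 11.7, 16.8, and 13.5 TPM in the Ctrl colons and 11.3, 9.64, and 6.84 TPM in the Y/T KO colons (-0.57, adjusted p = 0.488). The serotonin receptor *Htr2b* was the 1 gene above 0 (0.71, adjusted p = 0.510). The receptors *Glp1r*, *Sctr*, and *Ntsr2* were listed at 0 in all 6 colon libraries. For 10 of the 22 genes the Y/T KO colon of mouse 780 was the lowest of the 6 libraries. The summed level of the list was 308 TPM in that library, 442 and 482 TPM in the other Y/T KO colons, and 466 to 604 TPM in the Ctrl colons.

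Of 16 nutrient and microbial sensors, 8 were tested in colon, 4 on each side of 0. *Gpbar1*, a receptor of bile acids, was 0.912, 1.38, and 0.904 TPM in the Ctrl colons and 2.54, 5.44, and 5.07 TPM in the Y/T KO colons (log2 fold change 1.92, SE 0.35, adjusted p = 0.139). It passed the test when the Y/T KO colon of mouse 759 was left out (limma adjusted p = 0.0394). That omission also raised the calls over all genes, from 14 to 43 lower and from 10 to 20 higher. Of the highest, the fatty acid receptor *Ffar4* was 55.4, 28.7, and 34.7 TPM in the Ctrl colons and 53.7, 65.0, and 66.3 TPM in the Y/T KO colons (0.72, adjusted p = 0.482), the glucose transporter *Slc5a1* had a log2 fold change of -0.42, and the short-chain fatty acid receptor *Ffar2* one of 0.09.

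**Figure D5:**
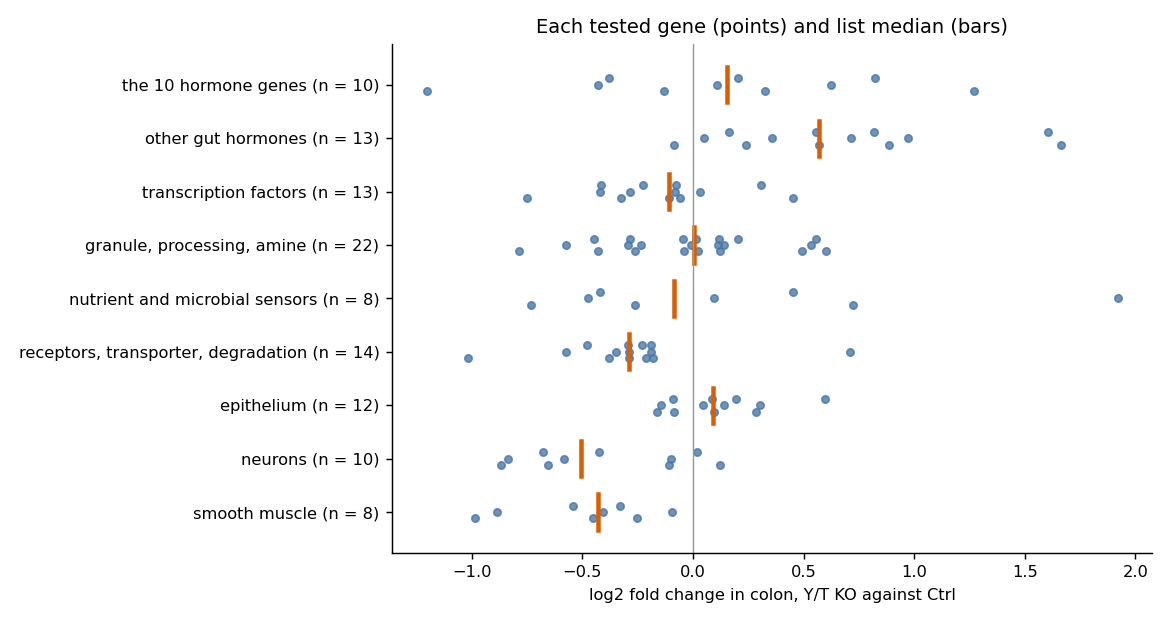
Log2 fold change in colon, Y/T KO against Ctrl (horizontal axis), of each tested gene (blue points) in 9 lists, with the median of each list (orange bars). The other gut hormones have a median of 0.57 and lie above 0 except *Guca2a*, the receptors have a median of -0.29 and lie below 0 except *Htr2b*, and the 10 hormone genes spread from -1.20 to 1.27.

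Markers of other cell types were set beside the colon values, and none of the acinar, smooth muscle, or epithelial markers passed the test (limma). The acinar gene *Cela2a*, chosen after its values were seen, was 10.01, 1.63, and 19.9 TPM in the Ctrl colons and was listed at 0 in all Y/T KO colons. Of 10 genes of an acinar list, 8 were tested. Of these, 7 were lower without overlap (8.28% of all genes) and 7 had an unadjusted p under 0.05 (4.59% on the lower side). The summed level of the list was 523 to 847 TPM in Ctrl and 618 to 773 TPM in Y/T KO colon, most of it *Cela1*. In every Y/T KO colon 5 of the 10 were listed at 0, and without any 1 Ctrl colon 3 were tested. Genes at 0 in Y/T KO colon passed the filter through the Ctrl colons alone and could not overlap, so these counts support nothing further. The pancreas is also a source of *Ppy*, *Sst*, and *Gcg*. Smooth muscle markers summed to 7481 to 8227 TPM in Ctrl and 4913 to 5780 TPM in Y/T KO colon. Of their log2 fold changes 8 of 8 were below 0 (49.1% of all genes) and 4 had an unadjusted p under 0.05 (4.59% on the lower side), whereas the 12 epithelial markers had a median of 0.09. The part of these cell types in the hormone values was not tested. Scaled to the epithelial markers, the log2 fold change was 0.52 for *Pyy* and -1.31 for *Tph1*.

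The genes nearest to the mean pattern of the 10 were sought among 15833 others of mean colon level at least 1 TPM, by the root mean square difference over the 6 colon libraries between their centred log2 level and the mean of the members. The closest were *Abcb9* (0.0487), *Snx21*, *Zfp459*, *Gm44985*, and *Ccdc127* (0.0613), as against a median of 0.371. They lay closer to that mean than any member did, and their likeness to single members was not measured. Among the members, *Gcg* was the closest to their own mean (0.132), and *Tph1* (0.710), *Cck* (0.737), and *Nts* (0.894) were the farthest, so that the mean describes the L cell genes and *Chga* better than the rest.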

How the data were processed

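The libraries were made from polyadenylated RNA of whole colon and bladder with a stranded kit, and the labels gave each library's tissue, genotype, and mouse. According to the methods and the submitters' processing notes, the authors aligned reads to GRCm38 with HISAT2 and estimated expression with StringTie; versions are not given in the sources used here. The deposited TPM is the share of each transcript in a library. The deposited FPKM, made by the authors, is scaled to length and aligned fragments, and the deposited coverage is the mean read depth over a gene. The read counts were not analysed here, so the counting error of a value is unknown and differences were judged by the spread between mice.

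TPM was summed by gene identifier and divided by median-of-ratios size factors. Genes of at least 0.5 TPM in at least 3 libraries entered limma 3.58.1 in R 4.3.3 (log2 of TPM plus 0.1, eBayes with trend and robust options), with Benjamini-Hochberg adjustment over all genes tested. Knockout effects were fitted within each tissue, and tissue differences and the interaction over 12 libraries in 4 groups. P-values are two-sided. The fits were tested on simulated data. Mice 788, 783, and 780 gave both tissues, which pairs their libraries. Their deviations from the group means correlated at -0.00913, 0.0675, and 0.0437 between tissues, and a fit with the mouse as a block was an alternative.

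The 10 genes and all lists were chosen with earlier results of these data known. Named genes are the members, called genes of a list, and the 3 of highest colon level in each list; others are marked as chosen after their values were seen. Promoters came from the RefSeq table (GRCm38.p6), in which all 10 genes were found. Alternatives were pseudocounts of 0.5 and 1 TPM, no filter, a mean TPM of at least 1, TPM and FPKM as deposited, eBayes without trend and robust options, scaling to the epithelial markers, all 12 libraries in one fit, the mouse block, and each library left out. List counts without single libraries were added after seeing the data.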

Additional observations from a re-analysis of the deposited data

How the results depend on the processing

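In both tissues 0 of the 10 genes passed the test of the knockout effect, and 0 passed that of the interaction, under all alternatives run. The fit with the mouse as a block (pairing of the replicate numbers) gave 0 called members in colon, 0 in bladder, 0 for the interaction, and 10 for each tissue comparison, and changed no call of a member. The number of members that differed between tissues in Y/T KO mice was 6 when values were scaled to the epithelial markers. Of these 12 markers, 11 were higher in colon in each genotype (limma, adjusted p under 0.05), and this scaling puts 19007 genes lower in Ctrl colon. In Ctrl mice it left 7 called: *Chga* (0.27, limma adjusted p = 0.586), *Tph1* (0.39, 0.666), and *Sct* (0.39, 0.567) were lost, and *Chgb* was 1.17. It turned the sign of *Neurod1* in Ctrl (-1.34) and, in Y/T KO mice, of *Chga* (-0.35), *Tph1* (-1.20), *Sct* (-0.30), and *Neurod1* (-1.77). With a pseudocount of 1 TPM the interaction of *Sct* was 0.00506 and that of *Nts* -0.11. In colon, *Foxa2* was -0.00427 with TPM as deposited and -0.0737 scaled to the epithelium, and *Ffar2* -0.0118 with the latter.

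With each library left out, the knockout effect in colon ran from -0.40 to 0.0926 for *Chga*, -0.15 to 0.27 for *Gcg*, -0.0936 to 0.37 for *Insl5*, -0.0343 to 0.52 for *Sct*, 0.34 to 0.79 for *Pyy*, and -1.49 to -1.01 for *Tph1* (limma adjusted p 0.0658 to 0.633), and in bladder from -1.59 to -1.03 for *Cck* (0.0618 to 0.443). In colon *Nts* (0.47 to 1.499) and *Cck* (0.80 to 1.31) passed the filter in 3 of these 6 fits and were not tested in the others. Signs also turned for *Atoh1* (-0.21 to 0.16), *Foxa2* (-0.11 to 0.14), *Foxa1* (-0.24 to 0.0487), *Ddc* (-0.53 to 0.00481), *Cpe* (-0.19 to 0.0710), *Guca2a* (-0.33 to 0.13), and *Ffar2* (-0.0843 to 0.21) in colon, for *Chga* (-0.26 to 0.95) and *Chgb* (-0.19 to 1.10) in bladder, and for the interaction of *Chga* (-1.09 to 0.11), *Gcg* (-0.16 to 0.24), *Insl5* (-0.13 to 0.35), *Sct* (-1.16 to 0.30), and *Nts* (-0.25 to 1.33). The numbers of called genes depended on single libraries: 14 were lower in colon, and 1 to 43 with a library left out (1 without the Ctrl colon of mouse 786, 43 without the Y/T KO colon of mouse 759), and 10 were higher, and 2 to 20. In bladder 40 were lower, and 8 to 36, and 15 were higher, and 2 to 15. Without the filter 2 genes were lower and 4 higher in colon, and with all 12 libraries in one fit 39 and 30. With that fit 23 genes were higher in bladder. For the interaction 7 genes were higher and 5 lower, and 12 and 10 without the trend and robust options, with 4 to 16 and 3 to 15 over the fits that left out a library.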
